A study of Drosophila melanogaster
Gallus gallus with 8 samples.

Results

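Chromosome 2 of the chicken B cell line DT40 held 19475 of the 89913 regions that DNA:RNA hybrid immunoprecipitation and sequencing (DRIP-seq) called in primpol and wild type cells. Of these, 10155 were among the 48468 peaks of the primpol list, and 9320 were among the 41445 peaks of the wild type list. Every row that the lists assigned to chromosome 2 was taken. No filter on height, width or significance was added to the threshold that the peak caller had applied. Chromosomes 1 and 3, the neighbours of chromosome 2 in size, were the reference, with 11354 and 6165 primpol peaks and 9353 and 5195 wild type peaks.

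The study asked how DNA:RNA hybrids change in cells that lack PrimPol. Its 8 libraries fell into 6 groups: 2 S9.6 immunoprecipitates, 1 input and 1 RNase H-treated immunoprecipitate from PrimPol-deficient (primpol) DT40 cells, and the same 4 from wild type DT40 cells. All of them came from DT40 cells mixed with Drosophila S2 cells at 3.75 to 1 before extraction of nuclei, and were digested with restriction enzymes before immunoprecipitation. Each genotype had 1 list of broad peaks, called on a merged immunoprecipitate alignment against its input. Replicate values could therefore not be separated. The RNase H-treated libraries were in neither list and were not analysed here, so the part of each peak that RNase H removes was not measured. The labels give no age, passage or number of clones for either line, and the primpol genotype itself could not be checked in lists of peaks without gene annotation.

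An R-loop is a stretch of RNA paired with one DNA strand of a duplex, with the other strand displaced. R-loops form behind RNA polymerase, most readily at promoters, at terminators and over sequences that stabilise the hybrid. The S9.6 antibody binds the DNA:RNA hybrid itself. PrimPol is a primase and polymerase that restarts synthesis ahead of a block on the template of a replication fork. DT40 has been described in cytogenetic work as carrying an additional copy of chromosome 2. A sequence present in more copies gives more reads in the input and in the immunoprecipitate alike, whereas a gain of hybrids at a given copy number is read in the immunoprecipitate alone. The lists give both sides for each peak. Height is the number of overlapping immunoprecipitate fragments, averaged over the width of the peak and scaled to the depth of the input. Fold enrichment is the height over the local background, each with 1 added. The local background was recovered from these columns as height plus 1, divided by fold enrichment, minus 1. It is the signal expected from the input around the peak, and is approximate because the caller averages each column over the peak separately. The caller had 30302032 input tags for primpol and 23107894 for wild type, which set the scale of heights and backgrounds in each list. Neither was normalised here to the Drosophila reads, to which the paper normalised its peak heights. Levels were therefore compared between chromosomes of 1 list first, and ratios between the lists are given beside those of chromosomes 1 and 3.

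Local background was higher on chromosome 2 than on chromosomes 1 and 3 in both lists, by nearly the same factor. In the primpol list its median was 10.001 input reads over the chromosome 2 peaks (interquartile range 8.99 to 11.1), against 6.64 over chromosomes 1 and 3. The wild type list had 6.57 (interquartile range 5.94 to 7.26) on chromosome 2, against 4.44. Chromosome 2 over chromosomes 1 and 3 was thus 1.51 in primpol (95% interval 1.50 to 1.52) and 1.48 in wild type (1.47 to 1.49). These intervals and those below cover counting error over peaks only, take peaks as independent, and leave out the spread between cultures.

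The ratio was close to constant over the distribution. At the 10th percentile of local background it was 1.52 in primpol and 1.50 in wild type, and at the 90th percentile it was 1.50 and 1.47. Of the chromosome 2 peaks, 89.7% in primpol and 89.98% in wild type had a local background above the 90th percentile of chromosomes 1 and 3 in their own list. Set against the genome-wide background that the caller used as its floor, the median stood 3.30 times as high on chromosome 2 in primpol, where chromosomes 1 and 3 stood 2.19 times as high. In wild type these values were 2.91 and 1.96. The floor was computed from an effective genome size of 1870 Mb given to the caller, so these multiples depend on that setting. The floor itself hardly entered, since 1 primpol peak and 4 wild type peaks of chromosome 2 lay within 1% of it.

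The same was seen along the length of the chromosome. Chromosome 2 was divided into 30 windows of 5 Mb, and chromosomes 1 and 3 into 62 windows that held at least 20 peaks. In both lists the median local background of each of the 30 windows was above that of every one of the 62. In the primpol list the windows of chromosome 2 ran between 9.02 at 0 to 5 Mb and 10.7 at 25 to 30 Mb, and the highest window of chromosomes 1 and 3 reached 7.13. In the wild type list they ran between 6.02 at 70 to 75 Mb and 7.11 at 30 to 35 Mb, against a highest reference window of 4.84. The coefficient of variation over the 30 windows was 4.27% in primpol and 4.46% in wild type. No stretch of 5 Mb returned to the level of the reference. Relative to the median reference window, the windows of chromosome 2 lay between 1.35 and 1.60 in primpol and between 1.34 and 1.59 in wild type. With windows of 2 Mb, each of the 75 windows of chromosome 2 was again above every reference window in both lists, the narrowest margin being 1.12 times in primpol and 1.10 times in wild type.

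**Figure D1:**
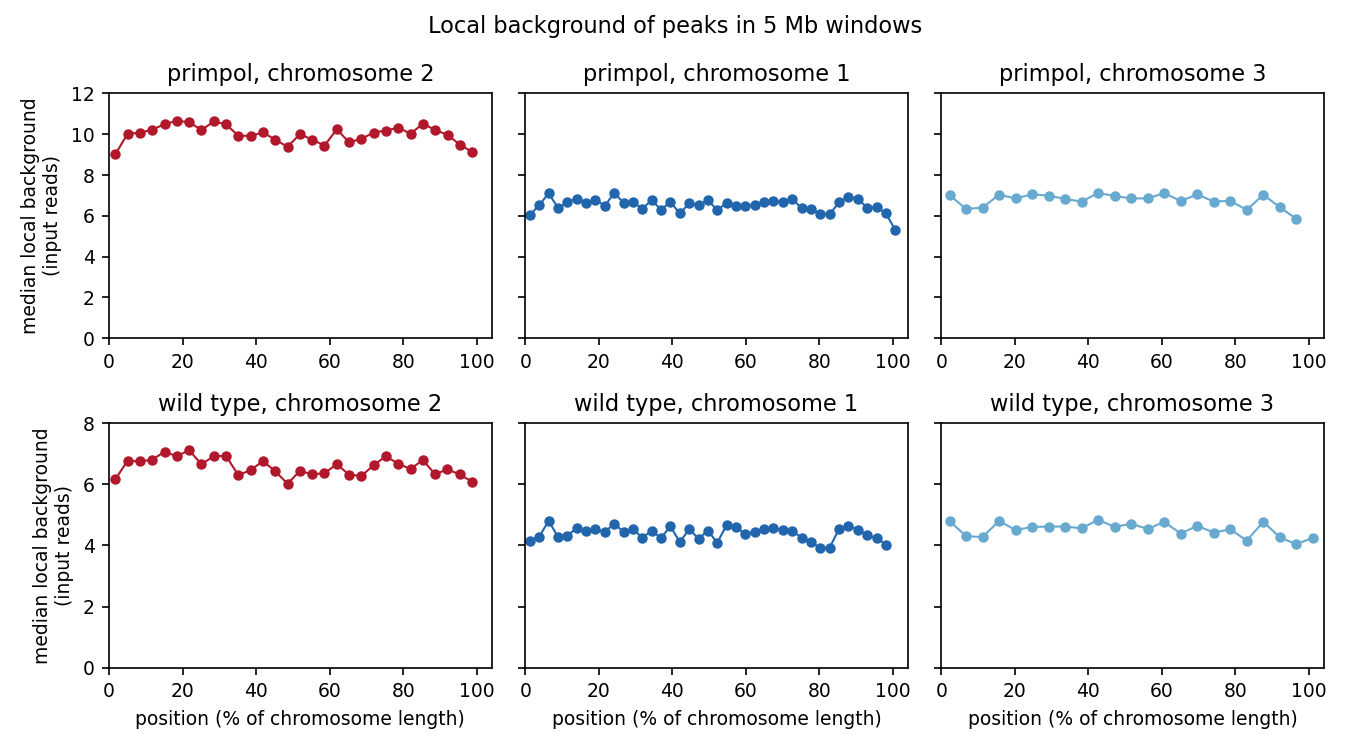
Median local background (input reads) of the peaks in each 5 Mb window, by position as a percentage of chromosome length, in primpol (top) and wild type (bottom), on chromosomes 2, 1 and 3. The 30 points of chromosome 2 run from 9.02 to 10.7 in primpol and from 6.02 to 7.11 in wild type, above all points of chromosomes 1 and 3, which reach 7.13 and 4.84.

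The ends of the chromosome had a low local background in both lists. In primpol the first and last windows had medians of 9.02 and 9.13, and the 28 inner windows lay between 9.39 and 10.7. In wild type the first window had 6.16 and the last 6.09, within the 6.02 to 7.11 of the inner windows. Only the inner window at 70 to 75 Mb, with 6.02, was lower than these. Low ends were not particular to chromosome 2. In primpol the first and last windows of chromosome 1 had 6.05 and 5.30, below its inner windows (6.09 to 7.13), the last holding 21 peaks. On chromosome 3 the last primpol window, at 105 to 110 Mb, had 5.86, below its inner windows (6.29 to 7.13). Its first window had 7.02, within them. In wild type the end windows of chromosomes 1 and 3 lay within the range of their inner windows. However, the last window that held at least 20 peaks differed between the lists on both chromosomes. Chromosome 3 at 105 to 110 Mb was its lowest window in wild type as well, at 4.04. On chromosome 1 the last wild type window had 6.13 in primpol, within the inner primpol range. The rise and fall along the chromosome was shared by the lists, with a Spearman correlation of 0.88 between the 30 primpol and wild type window medians. Both series of windows share the genome sequence and its mappability, and no p-value is attached.

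Chromosome 2 stood outside the range of chromosomes 1 and 3 to 15 in the 6 measures compared. Taken singly, on those 14 chromosomes the median local background lay between 6.55 and 7.34 in primpol and between 4.38 and 4.96 in wild type. The median height of chromosome 2, its peak density, its median width and the share of its peaks found in both lists were each above those of all 14 others in both lists. Its median fold enrichment was below all 14.

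Heights differed less between the chromosomes than the local background did. The median height on chromosome 2 was 22.6 fragments in primpol, against 16.9 on chromosomes 1 and 3, a ratio of 1.34 (1.33 to 1.35). In wild type it was 17.2 against 13.2, a ratio of 1.31 (1.30 to 1.31). Height minus local background, the part of a peak above its input, had a median of 12.4 in primpol, against 10.1 on chromosomes 1 and 3, and of 10.5 in wild type, against 8.68. Those ratios were 1.22 in primpol and 1.21 in wild type. Fold enrichment went the other way. Its median was 2.14 on chromosome 2 in primpol, against 2.33 on chromosomes 1 and 3, and 2.39 in wild type, against 2.60. The ratio was 0.915 (0.912 to 0.919) in primpol and 0.919 (0.916 to 0.922) in wild type. In each of the 30 windows, in both lists, the median height and height minus background were above every reference window, and the median fold enrichment was below every reference window.

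**Figure D2:**
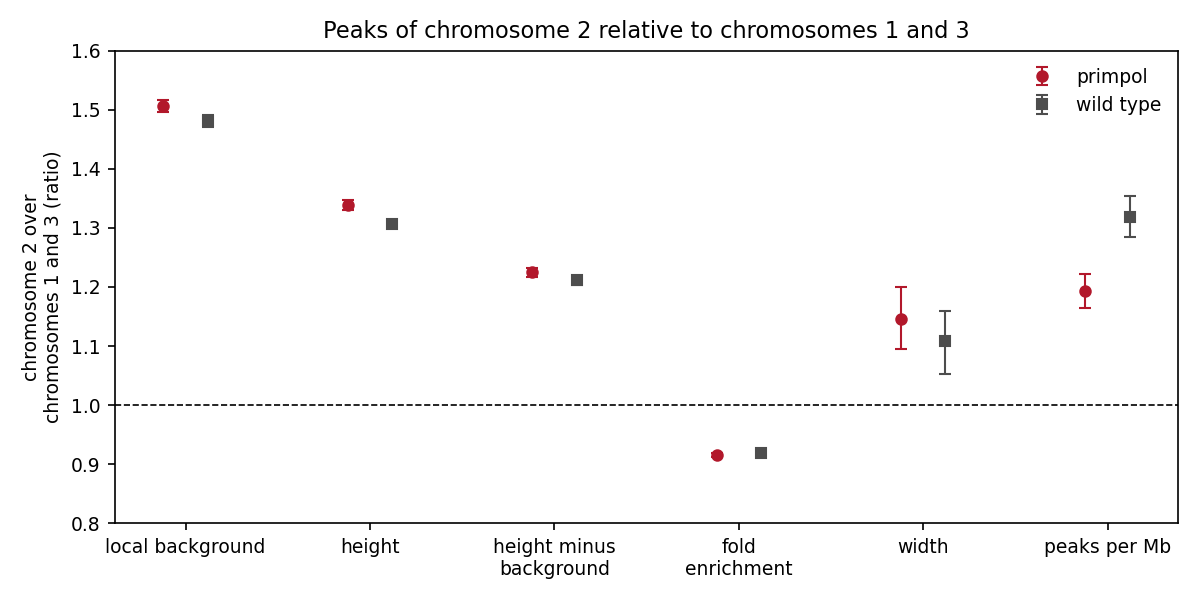
Ratio of chromosome 2 to chromosomes 1 and 3 for 5 medians over peaks and for the number of peaks per Mb, in primpol (circles) and wild type (squares), with 95% intervals that cover counting error only. Local background stands near 1.5, height near 1.3 and fold enrichment below 1 in both lists, and the lists differ most in peaks per Mb, at 1.19 in primpol and 1.32 in wild type.

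Peaks were more frequent and wider on chromosome 2. It held 68.0 primpol peaks per Mb, against 57.0 on chromosomes 1 and 3, and 62.4 wild type peaks per Mb, against 47.3. The ratio was 1.19 (1.16 to 1.22) in primpol and 1.32 (1.28 to 1.35) in wild type. The median width on chromosome 2 was 954 bp in primpol, against 833 bp, and 877 bp in wild type, against 791.5 bp. Together the peaks covered 10.3% of chromosome 2 in primpol, against 7.72% of chromosomes 1 and 3, and 8.82% in wild type, against 6.07%. Of the chromosome 2 peaks, 383 in primpol (3.77%) and 301 in wild type (3.23%) were at least 5 kb wide, where 3.12% of all primpol peaks and 2.78% of all wild type peaks were.

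The excess of peaks lay among those of low fold enrichment. The caller kept only peaks past a significance threshold, and at a higher local background a lower fold is enough to pass it. The part of this in the lower fold enrichment of chromosome 2 was not tested. The lowest fold enrichment called on chromosome 2 was 1.74 in primpol and 1.96 in wild type, the lowest of the whole list in each case, and on chromosomes 1 and 3 it was 1.82 and 1.99. With peaks counted only from a minimum fold enrichment upward, chromosome 2 fell below the density of chromosomes 1 and 3 from a minimum of 2.0 in primpol (ratio 0.994) and of 2.3 in wild type (ratio 0.935). At a minimum of 2.5, chromosome 2 retained 608 primpol peaks (5.99% of its own), and chromosomes 1 and 3 retained 22.2% of theirs, a density ratio of 0.322. In wild type 2899 peaks (31.1%) remained, against 69.4%, a density ratio of 0.591. A fold enrichment of at least 3 was reached by 50 primpol peaks (0.492%) and 296 wild type peaks (3.18%) of chromosome 2, where 3.5% of all primpol peaks and 9.69% of all wild type peaks reached it. From a minimum of 4 the numbers became too small to order the chromosomes. In primpol 10 peaks of chromosome 2 stood against 24 of chromosomes 1 and 3, a density ratio of 0.858 with an interval of 0.410 to 1.79, and in wild type 10 stood against 36, a ratio of 0.572 with an interval of 0.284 to 1.15. At a minimum of 5, 3 peaks of chromosome 2 stood against 4 in each list, a ratio of 1.54 with an interval of 0.346 to 6.90.

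**Figure D3:**
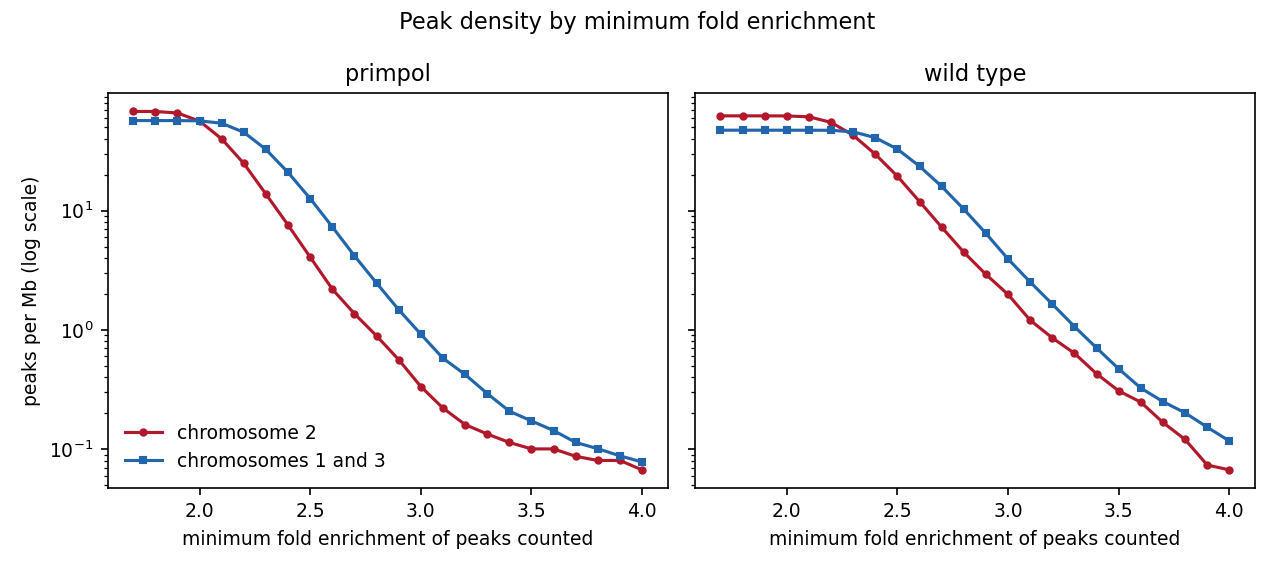
Peaks per Mb (log scale) that reach a minimum fold enrichment, on chromosome 2 (circles) and on chromosomes 1 and 3 (squares), in primpol (left) and wild type (right). The lines cross near a minimum of 2.0 in primpol and of 2.3 in wild type, and chromosome 2 lies lower from there to the end of the axis at 4.

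The count of the most significant peaks went in the opposite direction to the count at high fold. On chromosome 2, 47 primpol peaks and 31 wild type peaks had −log10 q-values of 5 or more, against 37 and 21 on chromosomes 1 and 3, although those are longer together. Per Mb the ratio was 2.61 (1.70 to 4.02) in primpol and 3.04 (1.75 to 5.29) in wild type. As a share of its own peaks this was 0.463% in primpol and 0.333% in wild type, above the 0.211% and 0.144% of chromosomes 1 and 3, and below the 1.1% of all primpol peaks and the 0.82% of all wild type peaks. The part of the higher local background in these counts was not tested.

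When the height and local background of every chromosome 2 peak were divided by the background ratio and the significance was recomputed from a Poisson distribution, 5362 primpol peaks (52.8%) and 4409 wild type peaks (47.3%) still passed the lowest significance of their list. The density ratio was then 0.630 in primpol and 0.624 in wild type. Such a calculation only removes peaks, and does not add those that a new call at another depth would make.

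Most chromosome 2 peaks were found in both genotypes. Of the primpol peaks of chromosome 2, 6702 (66.0%, 95% Wilson interval 65.1 to 66.9) overlapped a wild type peak by at least 1 bp, against 56.3% on chromosomes 1 and 3 and 57.8% in the whole primpol list. Of the wild type peaks, 6921 (74.3%, 73.4 to 75.1) overlapped a primpol peak, against 70.6% on chromosomes 1 and 3 and 69.7% in the whole wild type list. The differences were 9.73 percentage points (8.55 to 10.9) in primpol and 3.65 (2.49 to 4.80) in wild type. Peaks covered more of chromosome 2 in both lists, as given above, and the part of this in the shared peaks was not tested.

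Which peaks are set side by side decided the direction of this difference. At equal fold enrichment, in 10 equal parts (deciles) of each list, the share was higher on chromosome 2 in all 10 deciles of both lists. In the lowest decile it was 53.9% in primpol, against 41.9% on chromosomes 1 and 3, and in the highest it was 79.1% against 73.2%. In wild type it was 62.7% against 59.3% in the lowest decile and 87.9% against 86.0% in the highest. The intervals overlapped in the highest decile of both lists and in the lowest of wild type, and were apart in the remaining deciles. These deciles were filled unequally, since 33.4% of the primpol peaks and 30.5% of the wild type peaks of chromosome 2 fell in the lowest, with 2.89% and 2.85% of those of chromosomes 1 and 3. At equal height the order was the other way. In the 9 primpol deciles and the 10 wild type deciles with at least 20 chromosome 2 peaks, the share was lower on chromosome 2. In the eighth decile it was 48.9% in primpol, against 84.2%, and 67.6% in wild type, against 85.5%. In the highest decile, which held 39.2% of the primpol peaks and 32.7% of the wild type peaks of chromosome 2, it was 84.9% in primpol, against 97.2%, and 88.1% in wild type, against 89.8%. The intervals overlapped in the second and the third decile of primpol and in the lowest and the highest of wild type. At equal width, the share was higher on chromosome 2 in each primpol decile, at 50.9% against 43.4% in the fifth. The primpol intervals overlapped in the highest decile only. In wild type the share was also higher in each decile by width, at 64.9% against 62.7% in the fifth, but the intervals overlapped in every decile.

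**Figure D4:**
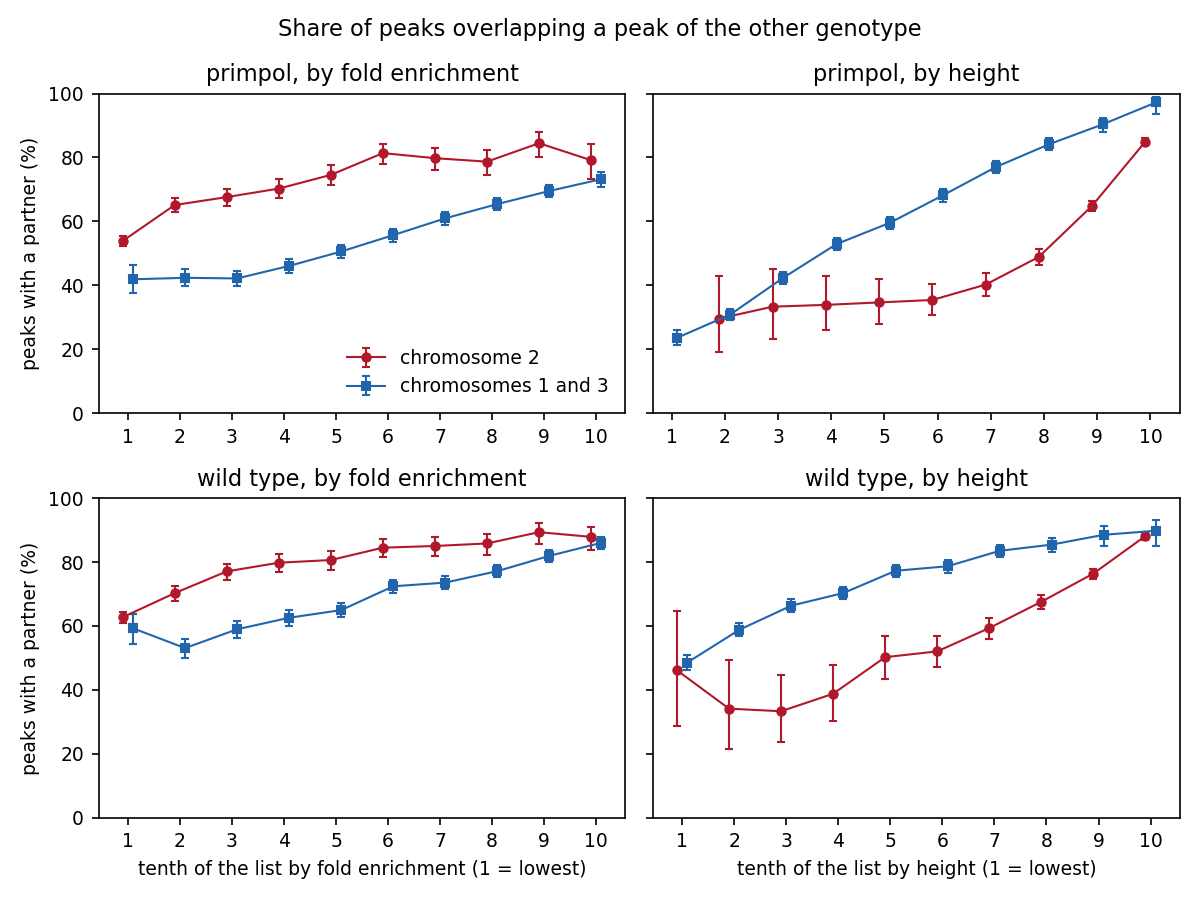
Share of peaks that overlap a peak of the other genotype, with 95% Wilson intervals, in deciles of each list by fold enrichment (left) and by height (right), for chromosome 2 (circles) and chromosomes 1 and 3 (squares), in primpol (top) and wild type (bottom). Points with fewer than 20 peaks are left out. Chromosome 2 lies higher when peaks are matched on fold enrichment and lower when they are matched on height.

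Ranked within its own chromosome, a peak's height and its presence in both lists went together. In the lowest decile of chromosome 2 by height, 34.3% of primpol peaks and 47.9% of wild type peaks had a partner, and in the highest decile 94.6% and 91.7% had one. On chromosomes 1 and 3, ranked together, the lowest decile had 24.4% and 47.6%, and the highest 88.8% and 87.1%. Chromosome 2 peaks without a partner were 3453 in primpol and 2399 in wild type. They were narrow, with a median width of 533 bp in primpol, against 1460 bp for those with a partner, and of 483 bp in wild type, against 1174 bp. Their median fold enrichment was 2.08 in primpol, against 2.17, and 2.32 in wild type, against 2.42. Chromosomes 1 and 3 had the same order, with widths of 546 bp against 1353 bp in primpol and 483 bp against 1057 bp in wild type. Fold enrichment there was 2.29 against 2.37 in primpol and 2.53 against 2.63 in wild type. Several wild type partners lay under 559 primpol peaks of chromosome 2 (5.50%), close to the 4.94% of all primpol peaks. Several primpol partners lay under 367 of its wild type peaks (3.94%), close to the 3.88% of all wild type peaks.

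The number of peaks differed less between the genotypes on chromosome 2 than on its neighbours. The primpol list had 1.09 times as many peaks there as the wild type list (1.06 to 1.12), and 1.204 times as many on chromosomes 1 and 3 (1.18 to 1.23). The ratio of these ratios was 0.905 (0.873 to 0.938). Chromosome 1 alone had 1.21, chromosome 3 alone 1.19, and chromosomes 4 to 15 together 1.16. Covered length gave the same order, at 1.17 on chromosome 2 and 1.27 on chromosomes 1 and 3. By 5 Mb window, the ratio on chromosome 2 lay between 0.890 at 0 to 5 Mb and 1.25 at 75 to 80 Mb, with a median of 1.09, and 5 of 30 windows had fewer primpol than wild type peaks. None of the 39 windows of chromosome 1 (1.009 to 1.40) and none of the 22 windows of chromosome 3 (1.02 to 1.33) had fewer.

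**Figure D5:**
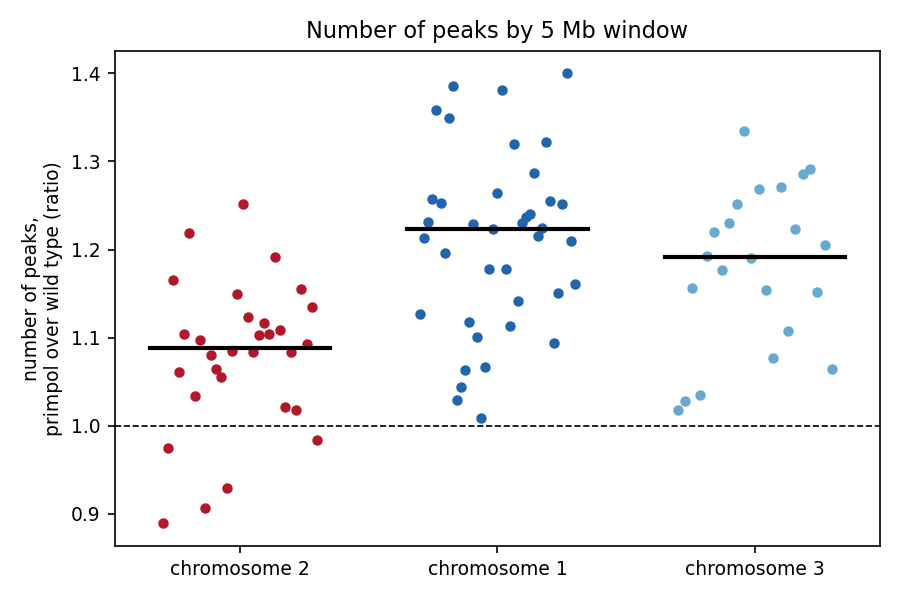
Number of primpol peaks over number of wild type peaks in each 5 Mb window (points, in order along the chromosome), with the median of each chromosome (line), for chromosomes 2, 1 and 3. The medians are 1.09, 1.22 and 1.19, and 5 windows lie below 1, all of them on chromosome 2.

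The size of this difference varied with how the peaks were counted. The ratio of the ratios was 0.910 with peaks within 1 kb merged, and 0.946 among the 20000 most significant peaks of each list, which held 4923 primpol and 5016 wild type peaks of chromosome 2. For peaks with −log10 q-values from 5 upward it was 0.861. That value rests on 47 primpol and 31 wild type peaks of chromosome 2, and on 37 and 21 of chromosomes 1 and 3. These numbers are too small to set it apart from the other settings. The primpol input was 1.31 times as deep as the wild type input. When the primpol peaks were scaled to the wild type input depth and held to the lowest wild type significance, 6859 of the 10155 chromosome 2 peaks remained, and primpol over wild type became 0.736. Chromosomes 1 and 3 became 0.729, so that the ratio of the ratios was 1.01. That step removes peaks from the primpol list alone and changes its significance threshold as well, so the part of depth in the difference cannot be told apart from that of the threshold.

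Local background itself showed almost the same genotype ratio on chromosome 2 as on chromosomes 1 and 3. Primpol over wild type was 1.52 on chromosome 2 and 1.50 on chromosomes 1 and 3 for the median local background, 1.32 and 1.28 for height, and 0.895 and 0.898 for fold enrichment. Among the windows of chromosome 2 the background ratio lay between 1.46 and 1.61, the highest at 130 to 135 Mb, with 1.41 to 1.56 on chromosome 1 and 1.45 to 1.53 on chromosome 3.

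Peaks were unevenly spread along chromosome 2, and in the same way in both lists. The fewest lay at 0 to 5 Mb, with 153 primpol and 172 wild type peaks, and the most at 70 to 75 Mb, with 491 and 427. In that window peaks covered 18.7% of the sequence in primpol and 14.2% in wild type. The number per window had a Spearman correlation of 0.94 between the lists over the 30 windows. It was not ordered by local background, with a correlation of -0.07 in primpol and -0.17 in wild type between number and median background, and it went with median width, at 0.59 and 0.63. The window with the most peaks in wild type was also the one with the lowest median background there, at 6.02. The share of peaks with a partner had no common order along the chromosome, with a correlation of 0.05 between the lists. It lay between 62.1% and 71.6% in primpol and between 59.3% and 85.1% in wild type.

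The highest peak of chromosome 2 and the second highest were the same in both lists. Positions are in Galgal5, 1-based, and no gene annotation of that build was used. The highest primpol peak lay at chromosome 2, 110603645 to 110605442, and stood 70.2 fragments high over a local background of 10.6, for a fold enrichment of 6.15. The wild type peak, at 110603632 to 110604929, stood 60.8 high over 6.70, for a fold enrichment of 8.02. The second highest was its near neighbour. In primpol, at 110598167 to 110599598, it stood 54.2 high with a fold enrichment of 4.55, and in wild type, at 110598149 to 110599579, it stood 48.2 high with a fold enrichment of 6.47. Both peaks were higher in primpol by height, though by a smaller factor than the 1.32 of the chromosome 2 medians. Both were lower by fold enrichment, and further below wild type than the 0.895 of those medians.

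The third highest differed between the lists. That of primpol, at 27222604 to 27224635, stood 42.2 high over a background of 14.2, and its wild type partner stood 28.7 high over 8.24. That of wild type, at 44939228 to 44942031, stood 39.8 high over 12.9 in primpol and 33.9 high over 8.41 in wild type. Fold enrichment at these positions was 2.83 and 2.94 in primpol, and 3.22 and 3.70 in wild type. Local background at both positions stood above the median of chromosome 2 in both lists.

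The peaks of highest fold enrichment included some with little input. The second in primpol, at 41237970 to 41238335, had a fold enrichment of 5.63 with a height of 26.4 over a background of only 3.87, and its wild type partner had 4.22 with 16.7 over 3.20. The third in primpol, at 115613092 to 115613805, had 5.02 with 30.7 over 5.31, and its wild type partner had 4.72 with 30.2 over 5.62. Both had a higher fold enrichment in primpol than in wild type, which few pairs had. The third in wild type, at 97752670 to 97754028, had 4.02 with 33.8 over 7.66 in primpol and 5.90 with 26.6 over 3.67 in wild type. Peaks of this kind were few. A local background below the median of chromosomes 1 and 3 was found at 211 primpol peaks (2.08%) and 192 wild type peaks (2.06%) of chromosome 2, spread over 30 and 29 of its windows with at most 20 and 14 in any 1 of them. They made up 21 of the 50 primpol peaks and 68 of the 296 wild type peaks with a fold enrichment of at least 3. Only 40 of the 5440 pairs described next were below that level in both lists.

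The widest peak of chromosome 2 spanned 14416 bp in primpol, at 48082946 to 48097361, and 14176 bp in wild type, at 48083194 to 48097369, and was the widest in both lists. Its height was 28.2 in primpol and 21.1 in wild type. The second widest in primpol, 13279 bp at 58773598 to 58786876, was split in wild type into peaks of 6481 and 5454 bp. The third, 12410 bp at 119374492 to 119386901, was split into 3 wild type peaks, the longest of 6748 bp. The second and the third widest in wild type were single peaks of like extent in primpol, with 12223 bp in primpol and 12278 bp in wild type at 64503318 to 64515595, and 11621 bp in primpol and 11582 bp in wild type at 70396330 to 70407911.

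On chromosome 2, 5440 primpol and wild type peaks overlapped each other and no further peak. Within these pairs primpol over wild type had a median of 1.33 for height, 1.54 for local background, 1.21 for height minus background, 0.894 for fold enrichment and 1.07 for width. The 7900 pairs of chromosomes 1 and 3 gave 1.32, 1.53, 1.21, 0.899 and 1.08. Heights and backgrounds were on the scale of each input, which was 1.31 times as deep in primpol. The part of depth in these ratios was not tested. Fold enrichment was lower in primpol in 90.3% of the pairs of chromosome 2, against 87.1% on chromosomes 1 and 3, while height minus background had the same ratio on both. Pairs were more alike on chromosome 2. The Spearman correlation across pairs was 0.57 for local background, against 0.48 on chromosomes 1 and 3, 0.45 for fold enrichment, against 0.38, and 0.72 for width, against 0.62. At least 50% of both peaks was shared in 65.6% of the pairs, against 58.8%. Pairs are not replicates, and they share the sequence, the mappability and the calling threshold.

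A change of rank within chromosome 2 from wild type to primpol was taken for the 3874 pairs in which a member exceeded the median height of its list on chromosome 2. Its median was 2.53 percentile points, with quartiles of -12.9 and 18.5. The pair that gained most in height percentile, at 59677071 to 59677831 (wild type coordinates), was 27.2 high in primpol and 13.5 high in wild type. Its local background was 10.6 in primpol and 3.69 in wild type, and its fold enrichment percentile fell by 6.98 points while its height percentile rose by 88.1. The pair that lost most, at 145682696 to 145682896, was 13.5 high over a background of 4.60 in primpol, and 21.3 high over 7.27 in wild type. It dropped by 94.0 points in height percentile and rose by 8.61 points in fold enrichment percentile. In both of these pairs height and local background differed in the same direction.

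The remaining pairs that gained also had height and local background differing in the same direction. Those at 56165655 to 56166321 and at 133212220 to 133213122 gained 83.2 and 79.8 points in height percentile, with changes of 0.763 and -13.4 points in fold enrichment percentile. Their local background was 12.7 and 14.4 in primpol, against 5.11 and 6.09 in wild type. The pairs at 127839150 to 127839994 and at 1851920 to 1852184 changed by -91.5 and -90.3 points in height percentile and by -22.4 and -42.4 points in fold enrichment percentile, so that they ranked lower in primpol by both. At 127839150 the height was 15.6 over a background of 6.32 in primpol and 20.9 over 5.88 in wild type. At 1851920 it was 18.3 over 7.91 in primpol and 22.4 over 6.16 in wild type. Primpol over wild type was thus 0.750 and 0.818 for height, against a median of 1.33 over all pairs of chromosome 2. For background it was 1.07 and 1.28, against a median of 1.54, so both measures lay below their medians at these pairs. Over all pairs considered, height and fold enrichment percentile changed in the same direction in 55.5%.

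Copies of chromosome 2 were not counted by another method in these data, and the part of copy number in its local background, heights and number of peaks was not tested.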

How the data were processed

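For each of 2 genotypes 1 list of broad DRIP-seq peaks was used. Per the labels and the file headers, the authors trimmed reads with Trim Galore 0.4.4, aligned them to Galgal5 with Bowtie2 2.2.6 and called broad peaks with MACS2 2.1.1.20160309, with immunoprecipitate replicates merged before calling and the input as control. How the replicates were merged is not given in the sources used here. Per the file headers, 44735404 and 46425192 immunoprecipitate tags were kept for primpol and wild type, with 30302032 and 23107894 input tags, and the broad q-value threshold was 0.1 (0.05 for the stronger part). Uniquely matching reads were kept, at most 1 per position, which limits the highest signals. The deposited signal column, here called height, is the mean fragment pileup of a peak; the deposited ratio is the fold enrichment over the local background; and p- and q-values were deposited as −log10.

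Local background was computed as (height + 1) / fold enrichment − 1. Density used the span between the first and last peak of a chromosome over both lists. Peaks with at least 1 bp in common were partners. Intervals are binomial for medians, Wilson for shares and log-normal for ratios of counts, at 95%. With 1 list per genotype no test between genotypes was possible and no p-value is given. The peaks named were the 3 highest, the 3 of largest fold enrichment and the 3 widest of each list, and the 3 pairs that gained and the 3 that lost most in height percentile, with the windows of extreme background and number. The members and lists were chosen with earlier results of these data known. The calculations used scipy 1.17.1, pandas 2.3.3 and numpy 2.4.6 under Python 3.11.15, and were tested on simulated data. No chicken gene annotation was used.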

Additional observations from a re-analysis of the deposited data

How the results depend on the processing

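Of 83 recalculations of the main values, 38 stayed within the 95% interval of the value given, 41 moved outside it on the same side of 1 (or of 0 for a difference), and 4 crossed to the other side. Chromosome 2 over chromosome 1 alone gave a local background ratio of 1.53 in primpol and 1.4997 in wild type, a height ratio of 1.350 and 1.32, and a fold enrichment ratio of 0.911 and 0.915. Over chromosome 3 alone these were 1.47 and 1.45, 1.32 and 1.29, and 0.925 and 0.927, with a density ratio of 1.23 in primpol. Over chromosomes 4 to 15 they were 1.45 and 1.41, 1.31 and 1.28, and 0.929 and 0.933, with density ratios of 1.68 and 1.79, since peaks were sparser there. The 20000 most significant peaks of each list gave density ratios of 1.47 and 1.55, height ratios of 1.32 and 1.29, and fold enrichment ratios of 0.901 and 0.909. Over 1-to-1 pairs the primpol background and height ratios were 1.496 and 1.33, and the wild type width ratio was 1.16. The density ratio crossed 1 when chromosome 2 was scaled down by its background ratio, at 0.630 in primpol and 0.624 in wild type, by construction a step that only removes peaks.

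The difference in shared peaks was 18.7 points in primpol and 11.3 in wild type as an equal-weight average over deciles of fold enrichment. In wild type it was 4.96 against chromosome 3, 6.85 against chromosomes 4 to 15, 6.37 among the 20000 most significant peaks of both lists, 6.46 with at least 50% of both peaks shared and 2.12 with a partner within 1 kb. Primpol over wild type in number of chromosome 2 peaks was 1.52 among peaks with −log10 q-values from 5 upward, 0.981 among the 20000 most significant peaks and 0.736 at the wild type input depth, the last 2 on the other side of 1. Taking the 20000 most significant peaks makes the lists equal in number, and the depth step removes primpol peaks alone. Both crossings therefore follow in part by construction. With at least 50% of both peaks shared, pairs had a height ratio of 1.34, a background ratio of 1.55 and a Spearman correlation of height of 0.69. Windows of 2 Mb and 10 Mb left every chromosome 2 window above the reference in both lists. The ranking of named pairs by fold enrichment, chosen after seeing the data, gave changes of -6.98 at 59677071, -13.4 at 133212220 and 8.61 at 145682696, opposite to their height percentiles. The cause of these shifts was not tested. No paired analysis was possible because the replicates of a genotype had been merged into 1 list, and for the same reason no replicate could be left out. The lists are cut at a significance that depends on depth, so a region missing from 1 list is not shown to lack signal there.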
